A study of Caenorhabditis elegans with 4 samples.

Results

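The regions described here are the 552 combined FKH-2 peaks on chromosome II of Caenorhabditis elegans, out of 3378 combined peaks in all. They were chosen by chromosome alone, so neither their q values nor their overlap with the replicates played a part in the choice. The assay was ChIP-seq, the sequencing of DNA recovered by chromatin immunoprecipitation, in L3 larval hermaphrodites, with 2 ChIP samples and 2 input samples. All 4 samples are of strain OP185, an unc-119(ed3) background outcrossed and carrying the transgene wgIs185. This transgene, brought in by bombardment, holds fkh-2 with a C-terminal tag of TY1, EGFP and FLAG and an unc-119 marker. The labels write FKH-1 for the fusion in 1 place and FKH-2 in titles and genotype. Worms were grown at 20 °C, crosslinked with 2% formaldehyde and precipitated with anti-GFP antibodies, so the signal is that of the tagged transgene product in whole animals. A strain without the transgene and values of the input were not analysed here.

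FKH-2 belongs to the forkhead family of transcription factors, which contact DNA through a winged-helix domain, and is related to the FoxG factors of vertebrates. In C. elegans it is known for a role in the specialised sensory cilia of the AWB olfactory neurons. The autosomes of this worm have gene-rich centres with little recombination and flanking arms that recombine more and carry more repeats. Positions are in WormBase WS220, per the file headers, and no sequence or gene annotation of that build was used, so peaks are given by position and none is assigned to a gene or printed as sequence.

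Peaks of 1 list share their library and are not replicates, and the 2 ChIP samples cannot carry a test over samples. Every comparison below is therefore a description. Shares carry exact Clopper-Pearson 95% intervals and medians carry 95% intervals from order statistics, and both cover counting error only. No test of chromosome II against the other chromosomes was made, and nothing is called particular to it. Sequencing depth is unknown. The other combined peaks number 2826, or 2694 without chromosome I, whose 132 combined peaks are few. The values without I are the ones set beside chromosome II below unless stated otherwise.

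The sites with the strongest calls on chromosome II come first. The q value is the authors' measure of how surely a peak stands above background, and the replicate ranks are the best among the replicate peaks that touch the site. The lowest q on the chromosome belonged to II:5543365-5544341, with q = 5.12e-20, a width of 977 bp and ranks of 18 in replicate 1 and 285 in replicate 2. It was the seventh lowest q of the whole list and also the widest combined peak of the chromosome. Next came II:12102353-12102762 in the right arm, with q = 9.04e-16, a width of 410 bp and ranks of 16 and 17. The site II:8787293-8787673 followed with q = 2.72e-14, a width of 381 bp and ranks of 31 and 12. At these last 2 sites the lists placed the peak almost identically, since the midpoints of the best replicate peaks lay 15.0 bp and 27.0 bp apart. At the leading site they lay 181 bp apart.

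Of the other 7 among the 10 lowest q values, some had like ranks in both replicates and others did not. The site II:5092462-5092757 had q = 9.28e-11 with ranks of 34 and 36, and II:10563330-10563692 had q = 9.18e-10 with ranks of 41 and 37. The site II:7887218-7887704 had q = 1.57e-09 with ranks of 67 and 123, and II:5844622-5845201 had q = 4.33e-11 with ranks of 49 and 179. Both replicates placed these 4 sites near the head of their lists. Rank numbers spread further at II:9060188-9060780 (q = 8.05e-09, ranks of 275 and 457) and at II:14040044-14040571 (q = 1.34e-11, ranks of 156 and 943). Both ranks were farthest down the lists at II:11749356-11750125, with q = 1.51e-11 and a width of 770 bp but ranks of 966 and 5333. There the best replicate peaks were 354 bp apart, more than at any other of the 10. The first 611 ranks of replicate 1 and the first 789 of replicate 2 are tied at the highest score of their list, so order within them comes from the peak names alone. Among these 7 sites, only II:14040044-14040571, in replicate 2, and II:11749356-11750125, in both replicates, ranked outside the ties. The other differences in rank number among the 7 hold no difference in score.

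Few of the strongest calls lay in the left arm, with the chromosome divided into 3 parts of equal length called left arm, centre and right arm. Among the 18 peaks of chromosome II with q below 1e-06, 2 lay in the left arm, 8 in the centre and 8 in the right arm, and both replicates had a peak at all 18, as at 95 of 106 such peaks elsewhere (89.6%, 82.2 to 94.7). Over all combined peaks of any q, 39.1% had a peak in both. Peaks with q below 1e-06 made up 3.26% of chromosome II (95% interval 1.94 to 5.10) and 3.88% of all combined peaks. A further way to pick strong sites is to ask for a rank within the first 300 in both replicates, which 13 combined peaks on II met (2.36%, against 2.31% of all combined peaks). This limit falls among the peaks tied at the highest score. The left arm held 28.1% of all combined peaks on II, and whether sets of 18 and 13 peaks differ from this share was not tested. Of the 13, 1 lay in the left arm, 7 in the centre and 5 in the right arm. The left-arm site was II:5046322-5046619, with q = 5.10e-08 and rank 69 in replicate 2, which lies close to the left border of the centre at 5.09 Mb.

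**Figure D1:**
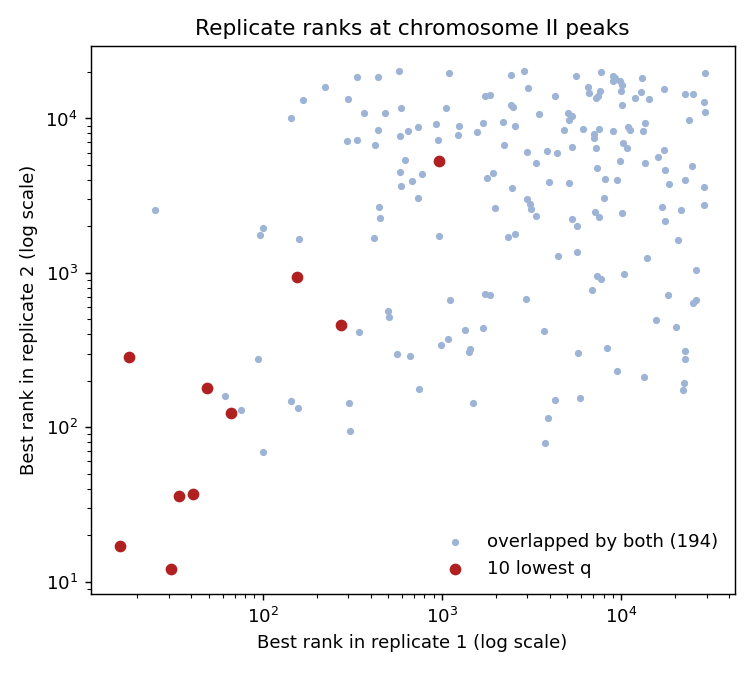
Best rank in replicate 1 (x, log scale) against best rank in replicate 2 (y, log scale) for the 194 chromosome II peaks overlapped by both replicates, 1 point a peak, with the 10 lowest q values in red. The red points sit at the lower left, apart from 1 at ranks 966 and 5333, while most other points fill the upper right.

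Over the 194 peaks that both replicates touched, the ranks of the replicates were only loosely related, as the plot of ranks shows. Spearman's rho between the replicate ranks was 0.22 (n = 194 peaks, which share both libraries), the same to 2 decimals as at the 1035 such peaks elsewhere. The deposited q followed replicate 1 (rho 0.68) more closely than replicate 2 (rho 0.43) on chromosome II, and the same order held elsewhere, with 0.56 and 0.40. All these correlations use rank numbers, so replicate peaks tied at the highest score enter in the order of their names. How far this changes the correlations was not tested. The median best rank at these peaks was 3426.5 in replicate 1 and 4077.5 in replicate 2. The whole lists hold 30000 and 20799 peaks, and the median rank of all their peaks on II was 15132.5 and 10450. So the typical site seen in both replicates lay beyond the tied top ranks, yet in the higher-ranking part of both lists. Where only 1 replicate had a peak, its median best rank was 3513 for replicate 1 and 4352 for replicate 2. On III, IV, V and X the medians were 3210 at shared sites and 4795 at sites of replicate 1 alone, and 3708 and 4706 for replicate 2.

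Position along the chromosome was described next. Combined peaks were thinnest in the left arm. With the chromosome taken as 15.27 Mb long, the largest peak end in any list, each part spans 5.09 Mb. The left arm held 155 peaks (28.1%, 95% interval 24.4 to 32.0), the centre 207 (37.5%, 33.4 to 41.7) and the right arm 190 (34.4%, 30.5 to 38.5). As densities these are 30.4, 40.7 and 37.3 peaks per Mb. Equal spread would put 33.3% in each part. The left interval lay below this value, the central one just above it, and the right one included it, and the interval of the right arm overlapped both others. The central interval included 33.3% once peaks of at most 20 bp were left out (33.2 to 42.0). Over all combined peaks, X included, 36.6% had their midpoint in the centre of their chromosome.

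The left arm of chromosome II held fewer combined peaks than the right, with intervals that overlap. On the other autosomes pooled, I included, the left arms, centres and right arms held 32.0%, 37.8% and 30.2% of 2220 combined peaks. The central share was thus close to that of chromosome II, while the pooled arms were nearer to each other. Pooling can even out unlike arms of single chromosomes, whose counts by arm are not given here. By point values alone, the replicates showed the same order on II. In replicate 2 the left arm, centre and right arm held 952, 1169 and 1055 peaks, or 29.97%, 36.8% and 33.2%. In replicate 1 they held 1532, 1601 and 1553 peaks, or 32.7%, 34.2% and 33.1%, a spread much flatter than in the combined list. Among replicate peaks within the 3378 highest-ranked nuclear peaks the left share was 26.7% (23.0 to 30.7) of 528 in replicate 1 and 27.2% (23.3 to 31.3) of 486 in replicate 2. The corresponding left shares on the other autosomes were 29.7% and 30.2%. Among combined peaks with q below 0.001 on chromosome II, 24 of 111 (21.6%, 14.4 to 30.4) were on the left, 43 in the centre and 44 on the right. On the other autosomes 132 of 440 such peaks were on the left, a share within the interval on II.

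**Figure D2:**
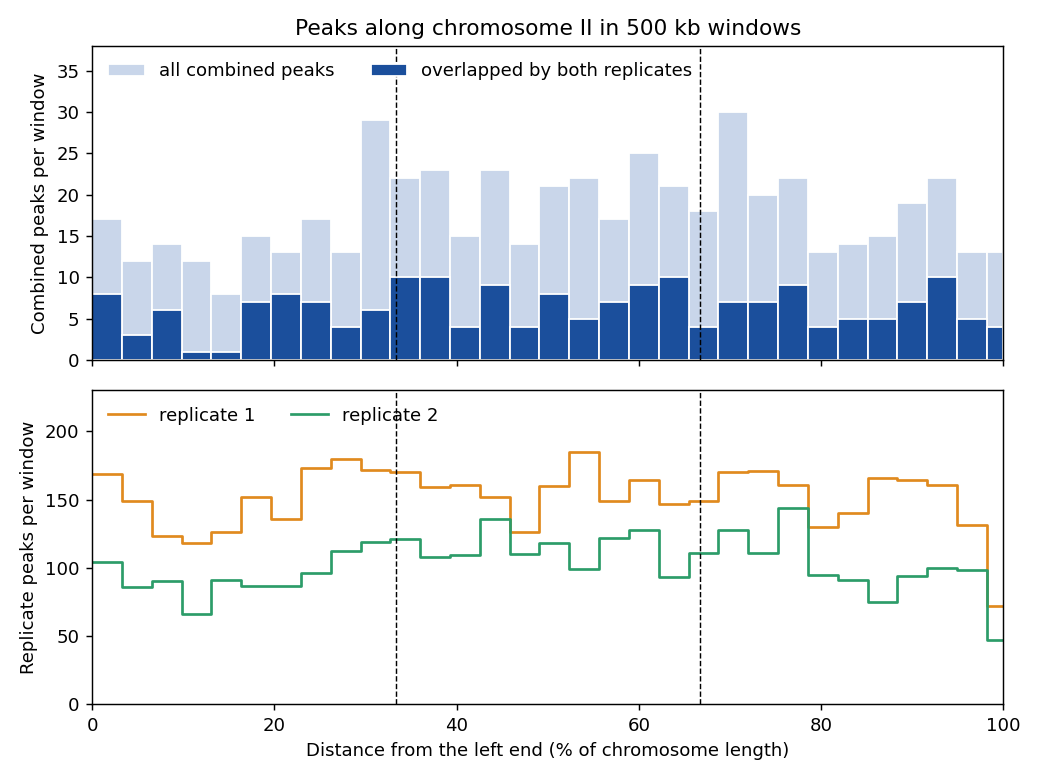
Peaks per 500 kb window along chromosome II (x, distance from the left end as a percentage of length), with combined peaks and those overlapped by both replicates as bars above and each replicate list as a line below. Dashed lines mark the borders of the centre, and the last window is shorter than the others. Combined counts run from 8 to 30 over the 30 full windows and are lowest in the left arm.

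In windows of 500 kb, the 30 full windows held 8 to 30 combined peaks, with a median of 17. The densest was II:10500001-11000000 with 30 peaks, of which both replicates touched 7. Next were II:4500001-5000000 with 29 peaks, of which 6 were touched by both, and II:9000001-9500000 with 25, of which 9 were. The 2 densest windows lie just outside the centre, 1 on each side, as the plot of windows shows. The sparsest was II:2000001-2500000 with 8 peaks, and it and its left neighbour, with 12, had 1 peak each that both replicates touched. These 2 windows were chosen after their counts were seen. Replicate 1 had 118 to 185 peaks per window and replicate 2 had 66 to 144. Across the 30 windows, Spearman's rho of combined with replicate counts was 0.59 for replicate 1 and 0.69 for replicate 2, and 0.45 between the replicates. Windows share library, mappability and base composition, and the part of these in the counts was not tested.

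Spacing addressed whether the peaks stand alone. Most did. The 551 gaps between neighbouring peaks, counted from the end of one to the start of the next, had a median of 15549 bp (95% interval 13548 to 17436), quartiles of 5240 and 37234 bp and a range of 206 to 217114 bp. On the other chromosomes the median was 16051 bp (14946 to 16962). The shortest gap in the whole list was 200 bp, so no 2 combined peaks anywhere lie closer than that. By position, the median gap was 19533 bp (13004 to 27209) on the left, 13984 bp (11882 to 16779) in the centre and 15155 bp (12764 to 20165) on the right. These intervals overlap one another.

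**Figure D3:**
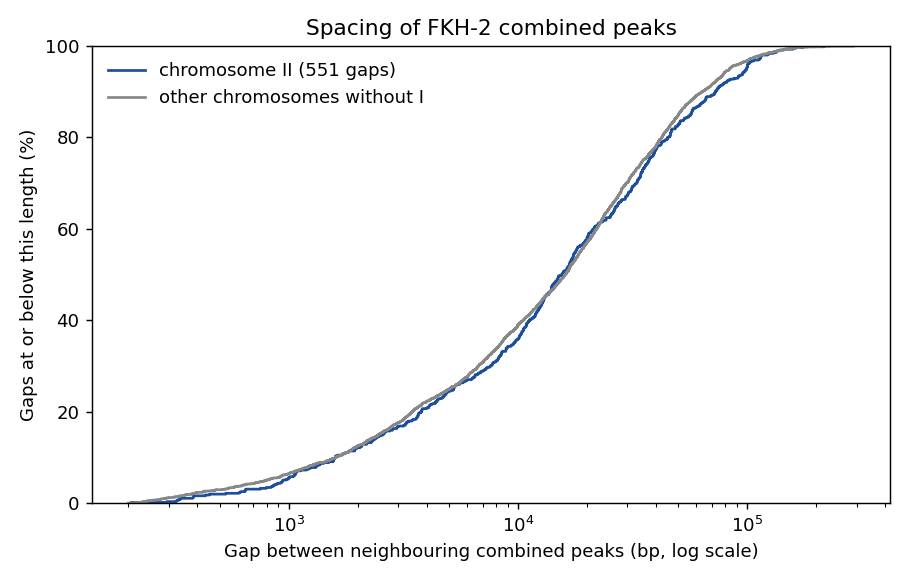
Cumulative share of gaps (y, percent) by gap length (x, bp, log scale) between neighbouring combined peaks on chromosome II (551 gaps) and on III, IV, V and X together (2690 gaps). The curves run close together, with medians of 15549 and 16051 bp.

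The curves of gap length ran close together over most of their course. Gaps of at most 1 kb made up 5.63% (3.85 to 7.89) on chromosome II and 6.43% elsewhere, and gaps of at most 10 kb made up 35.9% (31.9 to 40.1) and 39.0%. At the long end, 25 of 551 gaps (4.54%) exceeded 100 kb, against 5.10% over all combined peaks. The share on the other chromosomes was 5.21% with I and 3.20% without it, so the side on which chromosome II lies depends on chromosome I. The 3 longest were II:12378990-12596103 with 217 kb, II:6370396-6545164 with 175 kb and II:9774477-9936464 with 162 kb. None of them was empty in the replicate lists. The first held 63 replicate 1 peaks and 35 replicate 2 peaks, the second 50 and 41, and the third 29 and 26. Per Mb, the third gap had 179 replicate 1 peaks against 307 on the whole chromosome and 161 replicate 2 peaks against 208. The best ranks inside the gaps were 1212, 2410 and 1799 in replicate 1 and 1868, 1252 and 1866 in replicate 2, so no peak tied at the highest score lay in any of them.

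Clusters were defined as runs of combined peaks with gaps of at most 1 kb. Chromosome II had 29, of which 27 were pairs and 2 held 3 peaks. Together they took in 60 of 552 peaks (10.9%, 95% interval 8.40 to 13.8), against 11.4% of all combined peaks. By position, 8 clusters lay in the left arm, 9 in the centre and 12 in the right arm. The largest cluster on another chromosome held 9 peaks, a length not reached here. Joining peaks across up to 5 kb gave 96 clusters with 231 peaks (41.8%, against 42.1% elsewhere), the largest of 6 peaks.

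The cluster of 3 with the longer span was II:2969457-2971985, 2529 bp in the left arm. Its first 2 peaks were touched by both replicates, at ranks of 28893 and 12808 and of 294 and 7158, and its last peak by neither, the nearest replicate peak being 889 bp away. The other, II:10548846-10550290, spanned 1445 bp. Its first peak had q = 0.000500 with ranks of 957 and 7202, its middle peak of 94 bp had no replicate peak, and its last, 17 bp wide, had only replicate 2 at rank 1120. In neither cluster, then, did both replicates cover every member. This second cluster is the core of the longest 5 kb run, II:10542050-10552106, with 6 peaks in 10057 bp, of which only 1 was touched by both replicates. The third named cluster is a pair made of the leading peak, II:5543365-5544341, and II:5545276-5545440, which follows after a gap of 934 bp. The smaller partner had q = 0.000498 and a replicate 1 peak at rank 1563, with no replicate 2 peak within 1 kb.

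Across the 29 clusters, replicates often covered some members and not others. Both replicates covered every peak in 3 clusters, some peaks in 18 and no peak in 8, and no cluster was without any replicate peak. Clustered peaks were touched by both replicates in 25 of 60 cases (41.7%, 29.1 to 55.1) and single peaks in 169 of 492 (34.3%, 30.2 to 38.7). Elsewhere, I included, these shares were 44.0% and 39.3%. Whether neighbouring calls belong to 1 stretch of enrichment cannot be told from peak lists.

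Widths ran from 1 to 977 bp, with a median of 139.5 bp (126 to 153) and quartiles of 64 and 200 bp. Elsewhere the median was 142 bp (136 to 150). The replicate lists, with 4686 and 3176 peaks on II, had most frequent widths of 400 bp and 260 bp over all chromosomes. Width was therefore described in the combined list only. Among combined peaks the most frequent width was exactly 200 bp, shared by 29 peaks (5.25%) on II and by 4.49% on all other chromosomes. No other width occurred in more than 5 peaks. Median widths by position were 123 bp (112 to 145) on the left, 141 bp (125 to 159) in the centre and 154.5 bp (126 to 178) on the right.

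At the narrow end, 67 peaks (12.1%, 9.53 to 15.2) were at most 20 bp wide, against 11.8% of all combined peaks. Their q values were high, from 0.00222 to 0.01000 with a median of 0.00759. Both replicates touched 7 of them, replicate 1 alone 24, replicate 2 alone 20 and neither 16. Peaks of a single base numbered 5, and none of these was touched by both. One of the 5, II:5449328, lay in a replicate 1 peak of rank 916. At the wide end, 20 peaks (3.62%, 2.23 to 5.54) exceeded 400 bp, against 5.68% of all combined peaks and 5.35% elsewhere. After the leading peak, the widest were II:6347860-6348643 (784 bp, q = 4.14e-07, ranks of 454 and 2276), II:11749356-11750125 at 770 bp, II:11979579-11980328 (750 bp, q = 9.67e-06, ranks of 770 and 4390) and II:9060188-9060780 at 593 bp. All 5 were touched by both replicates.

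**Figure D4:**
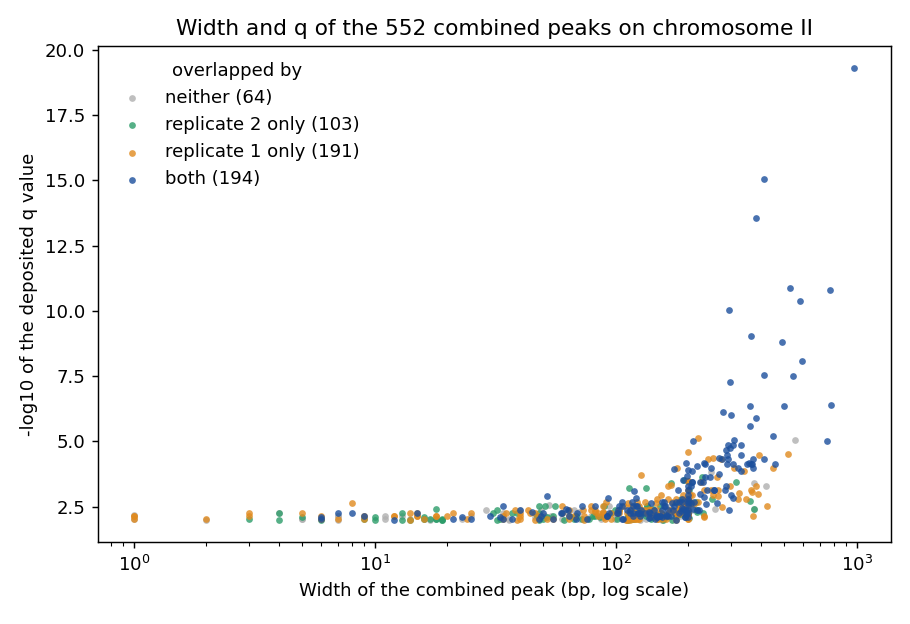
Width (x, bp, log scale) against the negative log10 of the deposited q value (y) for the 552 combined peaks on chromosome II, coloured by which replicates overlap them. Values above 6 occur only in peaks of at least 279 bp, all blue for both replicates, and the narrow peaks lie near the lower edge in all 4 colours.

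Width and q went together, as the plot of both shows, with a Spearman's rho of -0.71 over the 552 peaks and -0.68 elsewhere. The 133 peaks of II in the lowest quartile of q, with quartiles taken over all combined peaks, had a median width of 266 bp (240 to 293), and the 132 in the highest quartile one of 66 bp (48 to 89). The overall median q on II was 0.00525. The share with q below 0.001 was 20.1% (16.8 to 23.7), against 20.2% of all combined peaks. One peak, II:5661697-5662006 (q = 8.71e-06, ranks of 144 and 10065), carries a comment in the file that it changed during coordinate conversion, from 311 to 310 bp.

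Agreement with the replicates was the last question. Nearly 9 in 10 peaks were touched by at least 1 replicate, but fewer than 4 in 10 by both. These shares count any overlap of at least 1 bp with the whole replicate lists. With only the 3378 highest-ranked peaks of each list, at least 1 replicate touched 49.5% and both touched 9.06%. The shares that follow use the whole lists. Replicate 1 peaks touched 385 of 552 (69.7%, 65.7 to 73.6), against 72.2% of all combined peaks, and replicate 2 peaks touched 297 (53.8%, 49.5 to 58.0), against 55.5%. Both touched 194 (35.1%, 31.2 to 39.3), against 39.1% of all combined peaks and 38.4% (36.6 to 40.3) of those on III, IV, V and X. At least 1 touched 488 (88.4%, 85.4 to 91.0), against 88.6%. Replicate 1 alone touched 191 (34.6%, against 33.1%), replicate 2 alone 103 (18.7%, against 16.5%) and neither 64 (11.6%, 9.04 to 14.6, against 11.4%). Shares on II thus lay near the background of the whole list. Shares by both were 50.0% on X and from 32.6% to 37.1% on III, IV and V.

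Overlap depends on width, and the replicate lists cover much ground. On chromosome II the replicate 1 peaks cover 11.7% of all bases and the replicate 2 peaks 5.40%. A measure free of the combined peak's width asks whether its midpoint lies in a replicate peak. This held for 66.1% of the 552 in replicate 1, 49.5% in replicate 2 and 30.4% in both. On III, IV, V and X the shares were 68.8%, 49.2% and 32.1%. Where replicate 1 touched a peak, its best peak's midpoint was a median of 47.5 bp (40.5 to 55.0) from that of the combined peak, and in replicate 2 46.0 bp (37.5 to 52.5). Between the replicates at the same site the distance was 75.0 bp (63.0 to 96.0), and 59.8% of the 194 pairs were within 100 bp. On III, IV, V and X these medians were 48.5, 45.5 and 81.0 bp, and 59.2% of pairs were within 100 bp. It is not stated how far the combined list was made from the reads of these replicates, so overlap with them is not independent evidence of binding.

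**Figure D5:**
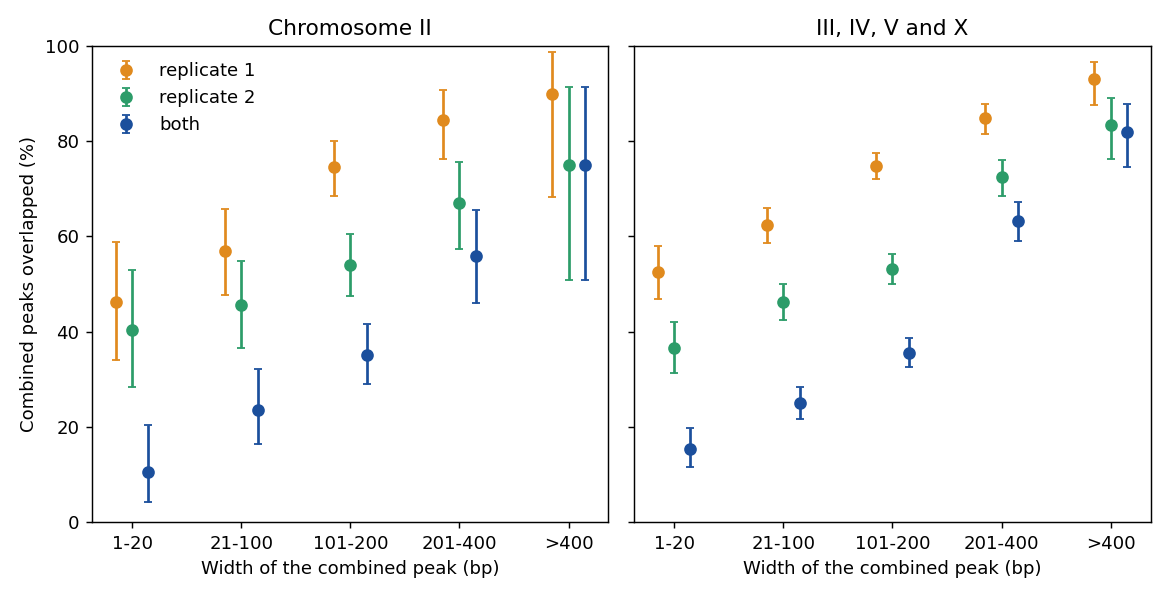
Share of combined peaks overlapped by replicate 1, replicate 2 or both (y, percent, points with exact 95% intervals) by width of the combined peak (x, bp) on chromosome II and on III, IV, V and X together. The share overlapped by both rises with width in each panel, on chromosome II from 10.4% at up to 20 bp to 75.0% above 400 bp.

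Within classes of width, the share touched by both replicates on II was 10.4% (4.30 to 20.4) at up to 20 bp, 23.6% (16.4 to 32.1) above 20 and up to 100 bp, 35.2% (29.1 to 41.7) above 100 and up to 200 bp, 56.0% (46.1 to 65.5) above 200 and up to 400 bp and 75.0% (50.9 to 91.3) above 400 bp. On all other chromosomes the same classes gave 15.1%, 25.2%, 36.5%, 64.2% and 83.1%. Each value on II was the lower of its pair, yet the interval on II included the other value in all 5 classes. These other chromosomes include I and X, where both replicates touched 68.9% and 50.0% of combined peaks of any width. On III, IV and V both touched 37.1%, 32.6% and 35.7%, and classes of width or q were not computed without X. From the lowest to the highest quartile of q, the share touched by both on II was 61.7%, 34.7%, 25.9% and 18.9%, against 69.8%, 39.3%, 28.5% and 21.6% on all other chromosomes. The interval on II included the other value in each quartile here too. In the lowest quartile replicate 1 touched 89.5% on II and 89.7% on all other chromosomes, and replicate 2 touched 68.4% (59.8 to 76.2) and 75.3%.

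By position, replicate 1 touched 65.2% (57.1 to 72.6) of the peaks on the left, 74.9% (68.4 to 80.6) in the centre and 67.9% (60.8 to 74.5) on the right, with intervals that overlap. Over all combined peaks these shares were 71.3%, 74.1% and 70.9%. Replicate 2 touched 54.8%, 52.7% and 54.2% on II. The share touched by neither was 14.8% (9.64 to 21.4) on the left, 8.70% (5.24 to 13.4) in the centre and 12.1% (7.83 to 17.6) on the right, against 10.8%, 10.0% and 13.4% over all combined peaks. These intervals overlap too.

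The 64 peaks that neither replicate touched tended to be narrow and to have a high q. Their median width was 68 bp (46 to 99) and their median q 0.00744. The nearest replicate peak was a median of 532 bp away, against 570 bp over all such combined peaks. It lay within 1 kb for 48 of the 64, against 67.7% of the 384 in the whole list, and at most 3688 bp away. With 307 replicate 1 and 208 replicate 2 peaks per Mb on II, short distances are common at any position. Whether these 64 lay nearer than other positions was not tested. Some of the 64 were neither narrow nor high in q. The lowest q among them belonged to II:15025635-15026186 near the right end, 552 bp wide with q = 9.09e-06, whose nearest peaks were 1454 bp away in replicate 1 and 8498 bp away in replicate 2. The next 4 by q all lay in the left arm. They were II:4284867-4285115 (q = 0.000153), only 24 bp from a replicate 2 peak, II:3994610-3994984 (q = 0.000409), II:3911073-3911492 (q = 0.000512) and II:2742993-2743191 (q = 0.00156). The last 3 lay 274, 266 and 337 bp from a replicate 1 peak.

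Seen from the replicates, the share of peaks on II that touched a combined peak was highest among the best ranks and low beyond them. Of the 34 replicate 1 peaks on II ranked within the first 300, 33 (97.1%, 84.7 to 99.9) touched a combined peak, as did 59.3% at ranks 301 to 1000, 26.0% at ranks 1001 to 3378 and 5.41% beyond. In replicate 2, 32 of 40 (80.0%, 64.4 to 90.9) did so within the first 300, then 43.8%, 17.2% and 6.39%. On III, IV, V and X the values for the first 300 were 96.6% and 83.7%. At the later ranks they were 63.0%, 24.6% and 6.85% in replicate 1 and 38.4%, 20.4% and 6.85% in replicate 2. Of the peaks on II tied at the highest score, 73 of 91 in replicate 1 and 63 of 97 in replicate 2 touched a combined peak. Such tied peaks were not counted for the other chromosomes. In all, 425 of 4686 replicate 1 peaks (9.07%) and 304 of 3176 replicate 2 peaks (9.57%) on II touched a combined peak. The share on III, IV, V and X was 10.5% in each replicate. With I included the shares were 9.19% and 9.27%, so the comparison depends on chromosome I.

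The replicate 1 peak within the first 300 that had no combined peak was II:4739981-4740380 at rank 260. It was followed by II:2719569-2719968 at rank 303, II:2501326-2501725 at rank 344, II:1395050-1395449 at rank 418 and II:8131331-8131730 at rank 423. The first 4 of these lie in the left arm, and none of the 5 had a replicate 2 peak. In replicate 2 the best-ranked peaks without a combined peak were II:1059841-1060100 at rank 112, II:10662788-10663047 at rank 131, II:11110696-11110955 at rank 181, II:8784586-8784845 at rank 245 and II:5575065-5575324 at rank 252. Of these only the one at rank 245 touched a replicate 1 peak, at rank 27590. With 5 sites a replicate, these counts cannot be told apart from the sharing of replicate peaks away from combined sites at any rank, given next.

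Replicate peaks at combined sites were also more often shared. On II, 53.6% of the 425 replicate 1 peaks at a combined peak touched a replicate 2 peak, against 14.2% of the 4261 elsewhere. For replicate 2 the values were 66.8% of 304 and 20.6% of 2872. Replicate peaks at combined sites also had better ranks, with medians of 3969 against 16103 in replicate 1 and 4284.5 against 11062 in replicate 2. Sharing on II fell with rank, from 76.5% at ranks 1 to 300 to 16.2% beyond 3378 in replicate 1. In replicate 2 it fell from 72.5% to 23.5%. Whether peaks of like rank differ in sharing was not tested. The sharing was not computed for the other chromosomes. Still, most of the shared replicate peaks lay outside the combined list. Only 228 of the 833 shared replicate 1 peaks (27.4%) were at a combined peak. For replicate 2 these were 203 of 794 (25.6%). With peaks most often 400 and 260 bp wide at 307 and 208 per Mb on II, some would touch by placement alone. How much of the sharing away from combined peaks this makes up was not tested. The shared peaks there are therefore no count of sites missed by the combined list.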

How the data were processed

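FKH-2 ChIP-seq peak lists of 2 ChIP replicates and a combined list were used; groups and replicate numbers come from the sample titles, which do not say whether the replicates were separate cultures. Per the file headers and columns, the authors deposited spp via IDR peaks with a score of unnamed scale for each replicate, and PeakSeq peaks with a q-value for the combined list, in WormBase WS220. The highest q in the combined list was 0.01000. Aligner, tool versions and pooling are not stated there. The number in a replicate peak's name was used as its rank. Overlap means at least 1 bp, peaks were placed in 1 of 3 equal parts of the chromosome by midpoint, and quartiles of q were taken over all 3378 combined peaks. Regions were named by rule: the 10 lowest q, 5 widest, 5 smallest rank sums, 5 lowest q without a replicate peak, 5 best-ranked replicate peaks without a combined peak, and the 3 largest clusters, longest gaps and densest windows. The members, lists and rule were chosen with earlier results of these data known. Alternatives changed the overlap rule, list length, q limit, width limit, cluster gap and central region. Overlap and cluster counting were tested on simulated data. Python 3.11.15, numpy 2.4.6, pandas 2.3.3 and scipy 1.17.1 were used. Depth is unknown.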

Additional observations from a re-analysis of the deposited data

How the results depend on the processing

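All alternatives were planned. The central share of chromosome II kept its direction in every alternative run, and lay between 34.2% and 36.8% in the lists of the single replicates, each with the other left out. Its interval also included 33.3% for q below 0.001 (29.6 to 48.5), for peaks covered by both replicates (31.8 to 45.9) and in the replicate 1 list (32.8 to 35.5). Overlap shares moved with the rule. Overlap by replicate 2, both, neither and either became 48.9%, 30.1%, 15.2% and 84.8% when at least 50% of the peak had to be covered, and 49.5%, 30.4%, 14.9% and 85.1% by the midpoint. Overlap by replicate 1, replicate 2, both, neither and either became 59.2%, 40.8%, 22.8%, 22.8% and 77.2% with the higher-ranking 50% of each list, 34.8%, 23.7%, 9.06%, 50.5% and 49.5% with the 3378 highest-ranked, and 90.1%, 72.1%, 65.8%, 3.60% and 96.4% for q below 0.001. With a replicate left out, overlap by either was 53.8% to 69.7% and by neither 30.3% to 46.2%; overlap by both has no value then. With q below 0.001 the median gap was 80836 bp over 111 peaks, the median width 286 bp, and 4 peaks were clustered; peaks over 20 bp had a median width of 156 bp. Gaps of at most 500, 2000 and 5000 bp put 22, 123 and 231 peaks in clusters. The cause of each shift is the changed rule or list. Leaving out chromosome I kept the overlap shares, central share, median gap and median width of the other peaks within their intervals, but moved their share of gaps over 100 kb from 5.21% to 3.20%. Of the 10 lowest-q peaks, 5 were covered at 50% by both replicates, whose peaks are most often 400 and 260 bp wide. No paired analysis was possible because no values of the input samples were analysed. Unknown depth limits any comparison of list lengths.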
